A study of Mus musculus with 19 samples.

Results

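The ligands of the bone morphogenetic protein (BMP), activin and transforming growth factor beta (TGF-beta) families, together with the secreted BMP antagonist Grem1, were followed in endometrial RNA-seq from mice. The set held 10 genes, Bmp2, Bmp4, Bmp7, Bmp8a, Inhba, Inhbb, Tgfb1, Tgfb2, Tgfb3 and Grem1, of 49089 genes counted, and was matched to the count table by gene identifier through the GENCODE symbols of the GRCm38 mouse genome. All females were wild-type (WT) C57Bl/6. The CONT group (3 pooled samples, numbered 1, 2 and 4) came from virgin females in estrus, around ovulation, with no treatment. The INT group (4 pooled samples) came from females mated with intact Balb/c males and was collected at day 3.5 pc, before embryos attach. The SVX, SVX_VAS and VAS groups (4 pooled samples each) were likewise collected at day 3.5 pc, but the Balb/c males had undergone surgery. Mated females were 8 to 14 weeks old. The count-column prefix and the treatment label name different surgeries in these 3 groups (the columns SVX, SVX_VAS and VAS carry the treatments vasectomised, seminal vesicle-deficient and both), so the groups are named by the column prefix alone and stand for no particular surgery. Endometrium was scraped from the myometrium, and each sample pools animals, so that p-values measure the spread between pools.

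These ligands are secreted as dimers that bind paired type I and type II serine/threonine kinase receptors on nearby cells. BMP receptors pass the signal through Smad1, Smad5 and Smad9, while activin and TGF-beta receptors use Smad2 and Smad3, and all share Smad4. In the rodent uterus, Bmp2 is known for its role in the decidual reaction of the stroma, Bmp7 and its type I receptors for the response of the endometrium to implantation, and activin and its binding protein follistatin for the control of receptivity.

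The libraries held between 12661266 and 31781270 counts on genes (CONT 15487788 to 31781270, INT 14201095 to 17420572, SVX 12661266 to 13799614, SVX_VAS 13789824 to 20525568, VAS 14040286 to 18258677). A count of 0 allows up to 3 counts, or 0.107 to 0.234 CPM in a library (CPM being counts scaled to a common library size with edgeR's TMM factors). All 6 epithelial markers (among them Epcam and Cdh1) and all 6 stromal markers (among them Pdgfra and Hand2) were detected in every group, as the tissue label requires, and smooth muscle markers summed to between 286 and 1275 CPM in the mated libraries. VAS libraries 2 and 3 stood apart from the other mated libraries, with stromal markers summing to 1093 and 1179 CPM against 3116 to 4731, and neutrophil markers to 47.3 and 58.6 CPM against at most 20.9.

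Genomic positions are those of the count table, in GRCm38. Bmp2 lies on chromosome 2 (133552159 to 133562885, plus strand), Bmp7 on chromosome 2 (172868012 to 172940321, minus strand) and Grem1 on chromosome 2 (113746164 to 113758646, minus strand). Bmp4 lies on chromosome 14 (46383520 to 46390669, minus strand), Bmp8a on chromosome 4 (123312645 to 123343252, minus strand) and Tgfb1 on chromosome 7 (25687002 to 25705077, plus strand). Tgfb3 lies on chromosome 12 (86056744 to 86079041, minus strand), and Inhbb and Tgfb2 lie on chromosome 1 (119415465 to 119422248 and 186622792 to 186705989, both minus strand). The counted model of Inhba on chromosome 13 (16011851 to 16027211, plus strand) has an exon length of 1980 bases and stops 4410 bases short of the GENCODE gene, so reads from the distal end of that gene are outside its counts. Exons of Bmp4, Tgfb2 and Tgfb3 overlap exons of other annotated genes on the opposite strand (by 89, 124 and up to 257 bases), and the strand setting of the counting is not given in the sources used here. Bmp8a shares 8.74% of its 50-base windows with its paralog Bmp8b, so reads of these 2 genes may be split or dropped by the counting.

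Promoter sequences from RefSeq (build GRCm38.p6), running from 250 bases before to 50 bases after the start of the gene, matched 7 of the 10 genes. Those of the 6 ligands among them are shown. Capitals mark matches on either strand. The TATA box was searched as TATAAA, the CCAAT box as its name spells it, and the GC box as GGGCGG; overlapping GC boxes are joined in one run. The first 3 sequences belong to genes at their highest mean level in estrus, and the last 3 to genes at their lowest mean level in estrus.

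Bmp8a, chr4:123343203-123343502, minus strand: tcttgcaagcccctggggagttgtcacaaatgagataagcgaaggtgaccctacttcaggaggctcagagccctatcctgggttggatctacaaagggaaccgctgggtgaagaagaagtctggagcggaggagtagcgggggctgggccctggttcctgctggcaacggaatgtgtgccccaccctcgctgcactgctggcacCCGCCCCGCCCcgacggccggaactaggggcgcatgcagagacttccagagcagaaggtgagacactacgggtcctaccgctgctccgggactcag
Inhba, chr13:16011601-16011900, plus strand: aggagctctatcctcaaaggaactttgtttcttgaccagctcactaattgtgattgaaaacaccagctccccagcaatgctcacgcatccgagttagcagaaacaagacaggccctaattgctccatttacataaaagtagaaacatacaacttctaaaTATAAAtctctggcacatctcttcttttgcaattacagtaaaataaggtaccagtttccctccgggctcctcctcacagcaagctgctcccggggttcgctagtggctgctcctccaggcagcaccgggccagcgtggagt
Inhbb, chr1:119422199-119422498, minus strand: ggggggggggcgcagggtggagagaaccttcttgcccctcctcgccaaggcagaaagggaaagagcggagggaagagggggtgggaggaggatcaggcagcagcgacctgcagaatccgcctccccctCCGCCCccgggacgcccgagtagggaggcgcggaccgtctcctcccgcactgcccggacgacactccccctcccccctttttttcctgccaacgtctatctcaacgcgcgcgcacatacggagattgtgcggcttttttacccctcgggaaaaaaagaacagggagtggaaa
Bmp4, chr14:46390620-46390919, minus strand: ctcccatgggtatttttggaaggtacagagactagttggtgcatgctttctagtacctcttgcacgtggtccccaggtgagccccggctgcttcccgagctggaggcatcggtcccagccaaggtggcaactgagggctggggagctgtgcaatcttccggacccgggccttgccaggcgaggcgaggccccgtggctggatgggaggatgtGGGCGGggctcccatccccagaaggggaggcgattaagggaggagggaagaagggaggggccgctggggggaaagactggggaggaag
Tgfb1, chr7:25686752-25687051, plus strand: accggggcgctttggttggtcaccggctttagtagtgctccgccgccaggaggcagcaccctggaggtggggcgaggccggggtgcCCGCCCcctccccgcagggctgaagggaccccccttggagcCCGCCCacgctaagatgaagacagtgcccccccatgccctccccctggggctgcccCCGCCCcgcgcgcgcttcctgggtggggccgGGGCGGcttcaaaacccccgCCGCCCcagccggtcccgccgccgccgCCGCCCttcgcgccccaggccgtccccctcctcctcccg
Tgfb2, chr1:186705940-186706239, minus strand: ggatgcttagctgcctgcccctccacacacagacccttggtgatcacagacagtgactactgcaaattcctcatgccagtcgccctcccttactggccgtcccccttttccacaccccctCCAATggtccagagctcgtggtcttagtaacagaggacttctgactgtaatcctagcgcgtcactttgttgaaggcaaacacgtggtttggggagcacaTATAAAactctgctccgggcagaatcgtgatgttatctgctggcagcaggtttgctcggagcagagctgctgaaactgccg

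The Tgfb1 window held 6 GC boxes, that of Grem1 (not shown) 3, the Bmp8a window 2 and the Inhbb and Bmp4 windows 1 each, against 35.7% of 32851 RefSeq promoters of the same length with at least 1. TATA boxes, found in 13.6% of promoters, began 91 bases before the start of Inhba and 31 bases before the start of Tgfb2. Tgfb2 and Grem1 also held 1 CCAAT box each (37.4% of promoters). The Smad element GTCTAGAC (0.213% of promoters) and the cAMP response element TGACGTCA (1.79%) had no match in the 7 windows, nor did the full estrogen response element (half-site GGTCA with its reverse complement after 3 bases, 0.07%) or the progesterone receptor element (GNACA with its reverse complement after 3 bases, 0.475%). The BMP-responsive element GGCGCC (11.9%) had 1 match, in the window of Grem1. These matches describe letters in a window and were not tested for binding.

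Estrous and day 3.5 pc endometrium showed 3 patterns across these genes. Bmp7, Tgfb1 and Bmp4 were higher in all 4 mated groups than in estrus, and Bmp8a was lower in all 4. Inhbb was the most abundant of the genes in estrus and ranged over more than an order of magnitude among mated libraries. With all libraries in the fit, Inhbb was called in no comparison with estrus. Genes were called where the edgeR quasi-likelihood test, with Benjamini-Hochberg adjustment over 17222 genes (the edgeR FDR), gave 0.05 or less and the change was at least 1.5-fold. In INT against CONT, 3 of the 8 genes that passed the filter on low counts (at least 3 CPM by total counts, before TMM scaling, in at least 3 libraries) were higher and 1 was lower, beside 33.6% of all genes called in this comparison (20.9% higher, 12.7% lower). Inhba and Grem1 were below that filter and are described separately. Bmp8a would not have passed it without the CONT libraries, and Bmp4 would not have passed it without the mated libraries. The median log2 fold change (logFC) of the 8 genes was 0.36, and that of all genes tested -0.01. The libraries of 6 of the 8 genes did not overlap between INT and CONT, beside 62.3% of all genes.

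**Figure D1:**
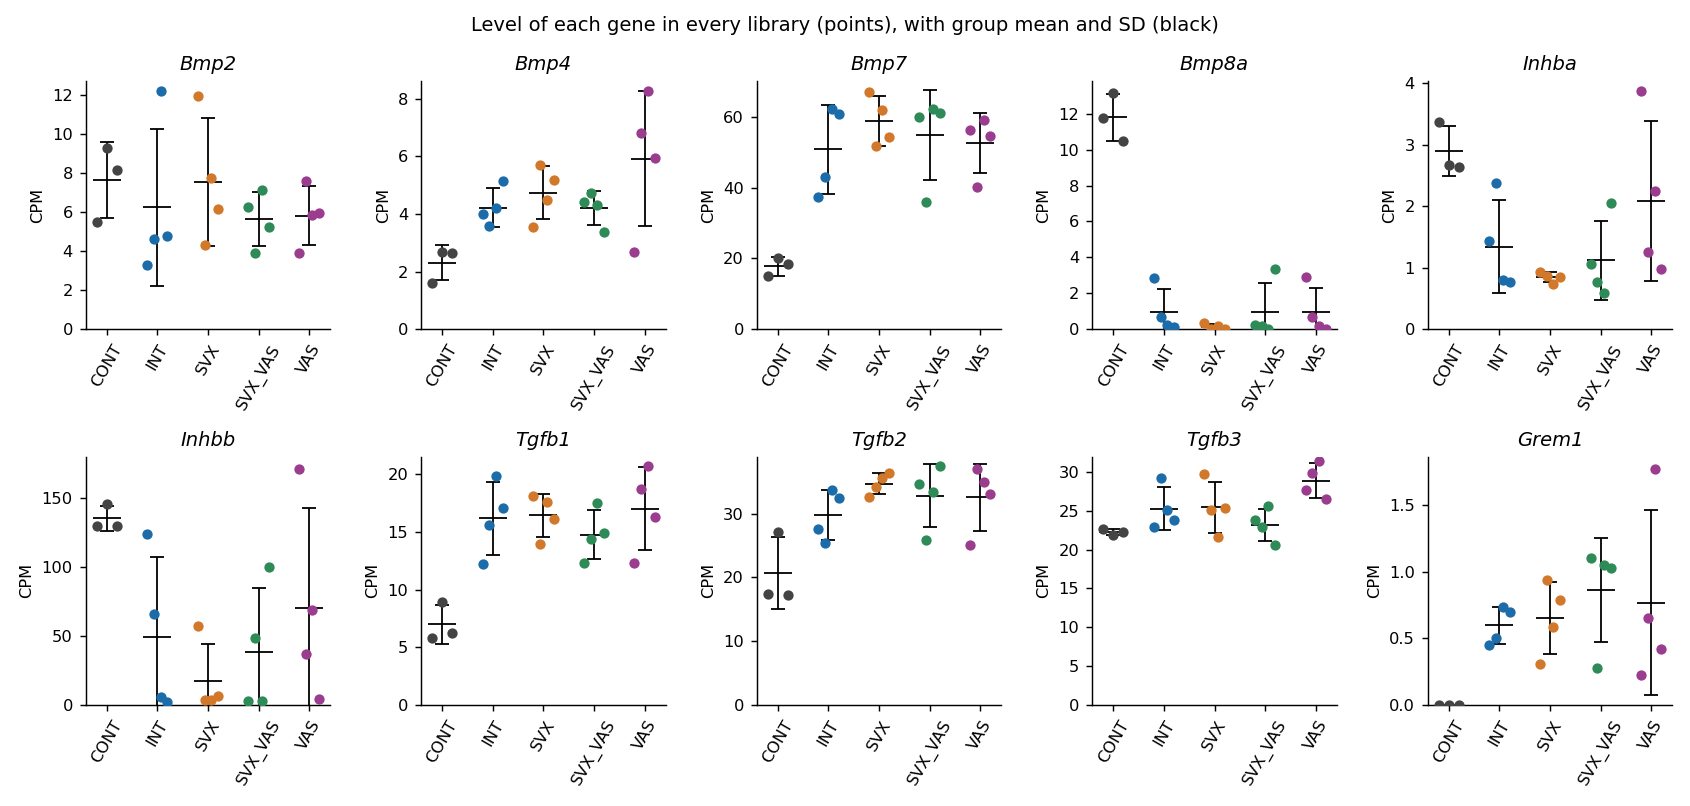
Level in CPM (linear axes from 0) of the 10 genes in each of the 19 libraries, by group; points are libraries and black bars the group mean and SD. Bmp7 lies between 36.0 and 67.2 CPM in mated libraries and at most at 20.2 CPM in estrus, while Inhbb spans 1.67 to 171 CPM among mated libraries.

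Bmp7, a BMP best known from kidney and eye development, showed the clearest rise. The 3 CONT libraries had 14.9, 20.2 and 18.3 CPM, and the 4 INT libraries 37.4, 43.0, 62.2 and 61.0 CPM. The SVX libraries had 67.2, 52.0, 62.1 and 54.4 CPM, the SVX_VAS libraries 60.2, 36.0, 62.3 and 61.2 CPM, and the VAS libraries 56.5, 40.2, 59.2 and 54.6 CPM. Every mated library lay above every estrus library. The logFC against CONT was 1.52 ± 0.22 (SE) in INT (edgeR FDR 5.16e-05), 1.73 ± 0.22 in SVX (edgeR FDR 1.08e-05), 1.62 ± 0.22 in SVX_VAS (edgeR FDR 2.29e-05) and 1.56 ± 0.22 in VAS (edgeR FDR 2.92e-05), which corresponds to a 2.86- to 3.31-fold rise.

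Bmp4, a BMP made largely by mesenchyme, was low in all libraries and rose in the mated groups. Its level was 1.60, 2.68 and 2.64 CPM in CONT, 3.98, 3.57, 4.19 and 5.15 CPM in INT and 3.56, 5.70, 4.50 and 5.19 CPM in SVX. In SVX_VAS it was 4.41, 4.74, 4.32 and 3.36 CPM, and in VAS 2.69, 6.81, 8.26 and 5.96 CPM. All mated libraries lay above the estrus libraries, VAS library 1 by the least. The estrus libraries were all below 3 CPM, so Bmp4 passed the filter on low counts only through mated libraries. The logFC against CONT was 0.87 ± 0.31 in INT (edgeR FDR 0.0287), 1.04 ± 0.31 in SVX (edgeR FDR 0.00927), 0.87 ± 0.31 in SVX_VAS (edgeR FDR 0.0261) and 1.36 ± 0.31 in VAS (edgeR FDR 0.00158). The 2 highest values belong to VAS libraries 2 and 3, and without them the logFC in VAS was 0.89 (edgeR FDR 0.0270). In INT against CONT the call for Bmp4 was lost with limma-voom, with no filter on low counts (edgeR FDR 0.0505) and without CONT library 1, INT library 3 or INT library 4, at an FDR of up to 0.139 in these settings. It was also lost in SVX without CONT library 1 (edgeR FDR 0.0563), and in SVX_VAS with limma-voom and without CONT library 1 or SVX_VAS library 1 or 2 (FDR 0.0502 to 0.129). With glmTreat, which tests against the fold itself, the call was lost in INT (FDR 0.238), SVX (FDR 0.0814) and SVX_VAS (FDR 0.210), and kept in VAS.

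Bmp8a, a BMP best known from the germline, fell in all mated groups. It stood at 11.8, 13.1 and 10.5 CPM (139 to 368 counts) in CONT, and at 2.86, 0.689, 0.227 and 0.139 CPM in INT. The SVX libraries had 0.310, 0, 0.145 and 0 CPM, the SVX_VAS libraries 0.240, 0.165, 0 and 3.36 CPM and the VAS libraries 2.91, 0.648, 0.187 and 0 CPM. Of the 16 mated libraries, 4 had no count and 7 had at most 3. Bmp8a passed the filter on low counts through the CONT libraries, where it was high, and the mated libraries alone would not have admitted it. Its calls as lower are therefore not independent of that filter. INT library 1, SVX_VAS library 4 and VAS library 1, each above 2.8 CPM, stood above the other 13 mated libraries, of which the highest had 0.689 CPM. The logFC against CONT was -3.61 ± 1.29 in INT (edgeR FDR 0.0291), -6.62 ± 1.60 in SVX (edgeR FDR 0.00220), -3.69 ± 1.29 in SVX_VAS (edgeR FDR 0.0238) and -3.64 ± 1.28 in VAS (edgeR FDR 0.0230). The call in INT was lost on leaving out CONT library 1 or 2 or INT library 2, 3 or 4 (edgeR FDR 0.0575 to 0.0776, logFC -3.61 to -3.25), and that in SVX_VAS without SVX_VAS library 1, 2 or 3 (edgeR FDR 0.0566 to 0.0663). Without VAS libraries 2 and 3 the call in VAS was lost as well (logFC -2.96, edgeR FDR 0.0730). With glmTreat the calls in INT (FDR 0.0692), SVX_VAS (FDR 0.0532) and VAS (FDR 0.0530) were lost, and that in SVX was kept. Without its highest library, the logFC of Bmp8a was -5.03 in INT (without library 1), -7.70 in SVX (without library 1), -6.29 in SVX_VAS (without library 4) and -5.27 in VAS (without library 1). In every mated group, all libraries nevertheless lay below the estrus libraries. Its paralog Bmp8b, which shares sequence with it, had a mean of 5.87 CPM in CONT and was called in none of the 4 comparisons with it. The logFC of Bmp8b was -0.06 in INT (edgeR FDR 0.955), 0.05 in SVX and -0.01 in SVX_VAS, and -0.90 in VAS (mean 3.17 CPM, edgeR FDR 0.237), where VAS libraries 2 and 3 had 0.185 and 0.887 CPM (4 and 19 counts) and libraries 1 and 4 had 5.72 and 5.89 CPM.

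Bmp2, which initiates the decidual reaction of the stroma after implantation begins, was not called in any comparison. The estrus libraries had 5.50, 9.32 and 8.14 CPM and the INT libraries 3.31, 4.63, 12.2 and 4.80 CPM, so that the groups overlapped. The SVX libraries had 12.0, 4.30, 7.77 and 6.19 CPM, and the SVX_VAS and VAS libraries lay between 3.91 and 7.59 CPM. The logFC in INT against CONT was -0.29, with a 95% interval of -1.16 to 0.58 (edgeR FDR 0.605), or -0.88 without INT library 3 (not called), and the intervals in the other 3 groups against CONT also held 0.

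Inhbb, which encodes the beta B subunit of activin B and inhibin B, was the most abundant gene of the set in estrus and the least even among mated libraries. CONT libraries had 130.3, 145.8 and 130.3 CPM. INT libraries 1 to 4 had 124, 65.8, 5.89 and 1.67 CPM, and SVX libraries 57.3, 3.28, 3.12 and 6.05 CPM. SVX_VAS libraries had 2.45, 48.5, 2.88 and 100.1 CPM, and VAS libraries 171, 36.9, 69.2 and 4.07 CPM. INT, SVX and SVX_VAS did not overlap with CONT, whereas VAS library 1 exceeded every estrus library. The logFC was -1.45 ± 1.41 in INT (edgeR FDR 0.428), -2.96 ± 1.48 in SVX (edgeR FDR 0.0993), -1.82 ± 1.42 in SVX_VAS (edgeR FDR 0.302) and -0.94 ± 1.41 in VAS (edgeR FDR 0.576), none of which passed. Leaving out 1 library moved the logFC of Inhbb between -2.47 (without INT library 1) and -1.05 (without INT library 4) in INT, between -2.91 (without SVX_VAS library 4) and -1.42 (without SVX_VAS library 1) in SVX_VAS and between -1.87 (without VAS library 1) and -0.55 (without VAS library 4) in VAS, and limma-voom gave -3.04 in INT and -3.43 in SVX_VAS, none of them called. In SVX against CONT the gene was called when library 1 of SVX was left out (logFC -5.02, edgeR FDR 0.0198) and when the fit held the libraries of SVX and CONT alone (edgeR FDR 0.0152). Over the 16 mated libraries the standard deviation of its log2 CPM was 2.37, at the 98.8th percentile of the genes tested, whose median was 0.264, and its highest library was 103-fold above its lowest.

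The level of Inhbb was set beside the summed CPM of an estrogen-response list (Ltf, Lcn2, C3, Muc1, Sprr2f and Clca3a1, genes known to be induced by estrogen in uterine epithelium). This list summed to 9320 to 11857 CPM in the estrus libraries and to between 229 and 8665 CPM in the mated libraries, and in INT against CONT 1 of its 6 genes was called higher and 1 lower. The 8 mated libraries with the highest list sums (523 to 8665 CPM) were the 8 with the highest Inhbb, at 36.9 CPM or more, and the other 8 (list at most 317 CPM) had at most 6.05 CPM of Inhbb. Other marker lists split the same libraries: the progesterone-response list summed to 154 to 288 CPM in the 8 highest for Inhbb and 330 to 381 CPM in the other 8, and the endothelial list to 343 to 596 CPM and 649 to 734 CPM. The epithelial list overlapped (444 to 2147 CPM, median 1465, against 601 to 856 CPM, median 732), as did the other 7 lists. Within the first 8 the order differed, since SVX_VAS library 2 was highest for the list and seventh for Inhbb. Of the 8 libraries highest for Bmp8a and of the 8 highest for Inhba, 6 each were among those 8, compared with 2 to 5 for the other members. Sets of 8 among 16 libraries share some by chance alone. For Bmp8a the libraries next to the cut (SVX 1, SVX_VAS 1, INT 3 and VAS 3) had 4 or 5 counts, so its set of 8 rests on counts near 0. These orders were seen in the data and are given as a description with no test, and the part of these lists in the result was not tested.

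**Figure D2:**
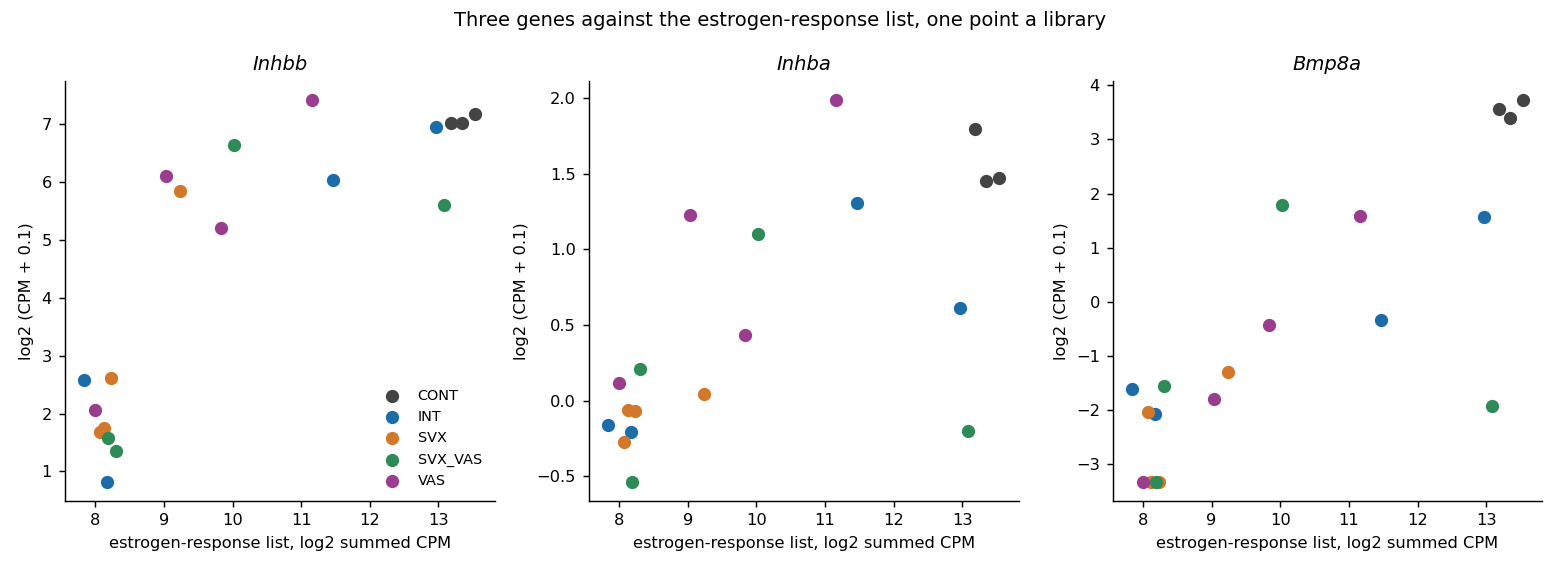
Level of Inhbb, Inhba and Bmp8a (log2 of CPM plus 0.1) against the log2 of the summed CPM of the estrogen-response list, with 1 point for each of the 19 libraries, coloured by group. For Inhbb the 8 mated libraries above 36 CPM lie to the right of the 8 at or below 6.05 CPM, and the estrus libraries lie at the upper right.

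Inhba, the beta A subunit of activin A and inhibin A, was low throughout. It had 3.37, 2.68 and 2.64 CPM in CONT, 1.43, 2.38, 0.793 and 0.765 CPM in INT and 0.929, 0.859, 0.726 and 0.854 CPM in SVX. SVX_VAS had 1.06, 0.771, 0.589 and 2.05 CPM, and VAS 3.87, 1.25, 2.24 and 0.982 CPM. INT, SVX and SVX_VAS did not overlap with CONT, and VAS did. On the log2 CPM scale the difference from CONT was -1.17 in INT, -1.64 in SVX and -1.41 in SVX_VAS (exact permutation test over libraries, two-sided p = 0.0571 in each, the smallest that 3 against 4 libraries allow) and -0.63 in VAS (exact permutation test, p = 0.286). With filters that kept Inhba in the fit it was called lower in SVX (edgeR FDR 0.00594 to 0.00877) and SVX_VAS (edgeR FDR 0.0225 to 0.0354), but not in INT (edgeR FDR 0.0619 to 0.1001) or VAS.

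Tgfb1, the TGF-beta isoform best known from immune and vascular cells, rose in the 4 mated groups. CONT had 5.80, 8.93 and 6.26 CPM and INT 12.3, 15.6, 19.8 and 17.1 CPM, while SVX had 18.1, 13.98, 17.6 and 16.2 CPM. SVX_VAS had 12.3, 14.4, 17.5 and 14.9 CPM and VAS 12.3, 18.7, 20.8 and 16.3 CPM, so no mated library fell into the range of estrus. The logFC was 1.21 ± 0.21 in INT (edgeR FDR 0.000216), 1.23 ± 0.21 in SVX (edgeR FDR 0.000117), 1.07 ± 0.21 in SVX_VAS (edgeR FDR 0.000440) and 1.28 ± 0.21 in VAS (edgeR FDR 9.91e-05).

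Tgfb2, an isoform best known from heart and skeletal development, was called higher in 3 of the 4 mated groups. CONT had 17.4, 27.2 and 17.3 CPM, INT 27.6, 25.4, 33.7 and 32.4 CPM and SVX 32.7, 34.1, 35.6 and 36.4 CPM. SVX_VAS had 34.6, 25.9, 33.3 and 37.5 CPM and VAS 25.1, 37.0, 35.1 and 33.2 CPM. CONT library 2 overlapped INT, SVX_VAS and VAS, and no library of SVX. In INT the logFC was 0.53 ± 0.17 (edgeR FDR 0.0191), a 1.44-fold difference short of the 1.5-fold limit. It was called in SVX (logFC 0.75, edgeR FDR 0.00159), SVX_VAS (logFC 0.67, edgeR FDR 0.00402) and VAS (logFC 0.66, edgeR FDR 0.00417). Without VAS libraries 2 and 3 the VAS value was 0.49 (edgeR FDR 0.0524). Leaving out CONT library 1 or 4 brought SVX_VAS and VAS under the fold limit (logFC 0.54 to 0.56), and leaving out CONT library 2 or INT library 2 brought INT over it (logFC 0.78 and 0.60). With glmTreat the calls in SVX (FDR 0.176), SVX_VAS (FDR 0.356) and VAS (FDR 0.352) were all lost.

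Tgfb3, an isoform best known from palate development, had the most even level of the genes. It ran from 21.9 to 22.7 CPM in CONT, 22.9 to 29.2 in INT, 21.6 to 29.7 in SVX, 20.6 to 25.6 in SVX_VAS and 26.5 to 31.5 in VAS. INT and VAS lay above the estrus libraries without overlap, SVX and SVX_VAS overlapped with them, and no comparison with CONT was called. In INT the logFC was 0.19, with a 95% interval of -0.05 to 0.42 (edgeR FDR 0.183). In VAS it was 0.38 (edgeR FDR 0.00824), a 1.30-fold difference below the limit on the fold, and 0.28 without VAS libraries 2 and 3 (edgeR FDR 0.0765).

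Grem1, a secreted protein that binds BMPs (Bmp2, Bmp4 and Bmp7) and keeps them from their receptors, had no count in the 3 estrus libraries (67238254 counts in all). It had 0.451, 0.501, 0.737 and 0.695 CPM in INT, 0.310, 0.937, 0.581 and 0.783 CPM in SVX, 1.10, 0.275, 1.05 and 1.02 CPM in SVX_VAS and 0.224, 0.648, 1.77 and 0.421 CPM in VAS. All 16 mated libraries thus had counts (4 to 38), although the level stayed low. Against the limit of 3 counts over the CONT libraries together (0.0516 CPM), the mean was at least 11.6-fold higher in INT, 12.7-fold in SVX, 16.7-fold in SVX_VAS and 14.9-fold in VAS. The bound for VAS was 8.36-fold without VAS library 3 and 6.25-fold without VAS libraries 2 and 3. Without CONT library 2, the deepest of the estrus libraries, the limit rose to 0.0995 CPM and the bounds were 5.99-fold in INT, 6.56-fold in SVX, 8.67-fold in SVX_VAS and 7.71-fold in VAS. The groups did not overlap (exact permutation test of log2 CPM, two-sided p = 0.0571 in each, the smallest possible), and with looser filters Grem1 was called higher in all 4 comparisons (edgeR FDR 0.000334 to 0.00117). A looser filter could admit Grem1 only through mated libraries, since it had no count in estrus. With no filter on low counts it was called as well (edgeR FDR 0.000379 to 0.00117).

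**Figure D3:**
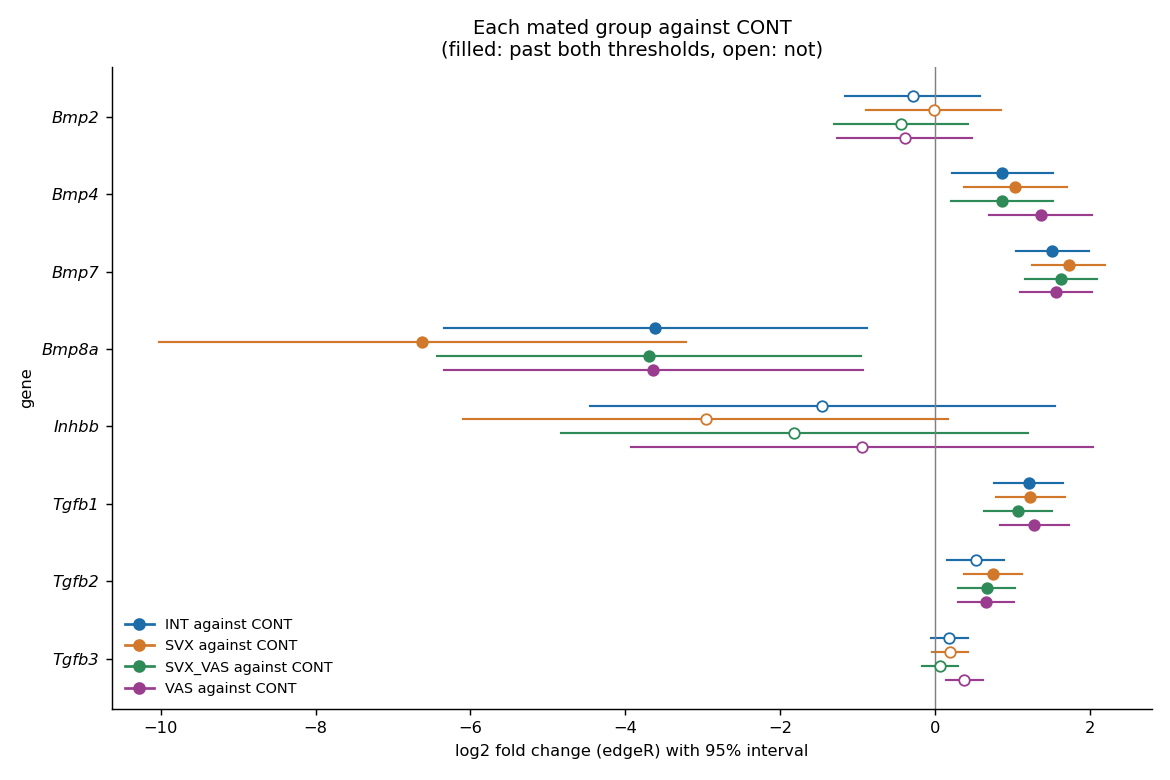
Log2 fold change (edgeR) of the 8 genes in the fit, with 95% intervals, for each mated group against CONT; filled points passed both the FDR and the 1.5-fold limit. Bmp4, Bmp7 and Tgfb1 lie right of 0 and Bmp8a left of 0 in the 4 comparisons, while the intervals of Inhbb and Bmp2 hold 0.

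Across the 4 comparisons with CONT, which share the estrus libraries, the same 3 genes were called higher and Bmp8a lower. Bmp8a was in the fit because of its level in CONT, as said above. Tgfb2 was also called higher in SVX, SVX_VAS and VAS. That makes 4 genes higher and 1 lower in SVX (beside 41.5% of all genes called, 23.1% higher and 18.4% lower), in SVX_VAS (38.5%, 22.1% and 16.4%) and in VAS (40.4%, 23.2% and 17.2%). The libraries of 6, 5 and 5 of the 8 genes did not overlap with CONT in SVX, SVX_VAS and VAS, beside 70.9%, 67.5% and 55.1% of all genes. Other cell markers moved with the same contrast: in INT against CONT 4 of 6 epithelial genes were lower, and 4 of 6 stromal, 5 of 5 endothelial, 4 of 4 T and NK cell and 5 of 5 progesterone-response genes were higher. Of the other lists, 4 of 4 red blood cell genes were higher (sums of 14.97 to 26.2 CPM in CONT and 33.2 to 69.9 CPM in INT), as were 1 of 6 smooth muscle genes and 1 of 2 neutrophil genes tested, and of 4 macrophage genes 2 were higher and 1 lower. The epithelial list summed to 3036 to 4151 CPM in CONT and 601 to 2147 CPM in INT, the stromal list to 3149 to 3266 CPM and 3475 to 4731 CPM, and the endothelial list to 105 to 163 CPM and 436 to 670 CPM. Their part in the results for the ligands was not tested, and in bulk tissue fewer cells of a type and less RNA per cell cannot be told apart.

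Whether the males' surgery changed these genes was asked by comparing each surgical group with INT. None of the 8 genes was called in SVX, SVX_VAS or VAS against INT, and none had an unadjusted edgeR p under 0.05, beside 0% of all genes called and 4.35%, 1.97% and 10.6% of all genes at an unadjusted p under 0.05 (749, 339 and 1831 genes). No gene of the 8 was without overlap, beside 2.61%, 1.72% and 1.24% of all genes. DESeq2 called 3, 2 and 0 genes in all and limma-voom 0, 0 and 1661, none of them one of the 8 genes. With DESeq2, 1 of the 8 genes had an unadjusted p under 0.05 in SVX, beside 880 of all genes, and none in SVX_VAS or VAS. The largest difference in size was that of Bmp8a in SVX (logFC -3.01, 95% interval -6.40 to 0.39, edgeR FDR 0.9997), which ran from -1.59 without INT library 1 to -4.09 without SVX library 1. Bmp8a had 6 counts in SVX and 55 in INT over all libraries, and was in the fit because of its level in CONT. Its rank as the largest difference thus rests on counts near 0. For Bmp7 the intervals ran from -0.20 to 0.62 in SVX, -0.30 to 0.52 in SVX_VAS and -0.36 to 0.46 in VAS, and for Tgfb1 from -0.37 to 0.42, -0.53 to 0.26 and -0.32 to 0.47. For Inhbb they were wide (-4.40 to 1.39, -3.17 to 2.45 and -2.29 to 3.31), so differences of several fold in either direction were not detectable at this spread. The edgeR F-test for any difference among the mated groups called none of the 8 genes (edgeR FDR 0.635 to 0.854) and no other gene. Of the 8, Tgfb3 alone had an unadjusted edgeR p under 0.05, beside 7.04% of all genes (1213). Inhba and Grem1 overlapped between INT and each surgical group (exact permutation tests, p = 0.314 to 1, smallest possible 0.0286).

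Levels of different genes were compared per kilobase of counted exon (CPM per kb). In estrus the order was Inhbb (31.8 ± 2.10, SD, n = 3), Tgfb3 (6.58 ± 0.114), Bmp8a (4.91 ± 0.552), Bmp7 (4.43 ± 0.664), Tgfb2 (3.56 ± 0.978), Bmp2 (2.15 ± 0.550), Inhba (1.46 ± 0.208), Tgfb1 (1.39 ± 0.335), Bmp4 (1.04 ± 0.276) and Grem1 at 0. Neighbours from Bmp8a to Tgfb2, and from Bmp2 to Bmp4, overlapped between libraries. In INT the order began with Bmp7 (12.7 ± 3.13, SD, n = 4), Inhbb (11.6 ± 13.6) and Tgfb3 (7.47 ± 0.825), followed by Tgfb2 (5.14 ± 0.681), Tgfb1 (3.21 ± 0.627), Bmp4 (1.90 ± 0.300), Bmp2 (1.76 ± 1.14), Inhba (0.678 ± 0.382), Bmp8a (0.407 ± 0.530) and Grem1 (0.144 ± 0.0340). There Bmp7, Inhbb and Tgfb3 overlapped as neighbours, as did those from Bmp4 to Grem1. Bmp7 was also first in SVX (14.7 ± 1.75) and SVX_VAS (13.7 ± 3.15), and in VAS Inhbb (16.5 ± 17.0) stood before Bmp7 (13.1 ± 2.11) with overlapping libraries.

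Other genes of the pathway were taken from lists that were chosen with earlier results of these data known. Among 24 other ligands 8 passed the filter on low counts, and in INT against CONT 5 were higher and 2 lower (median logFC 1.43). Lefty1 and Inha, both among those higher, had at most 1.81 and 1.29 CPM in CONT. They passed the filter only through mated libraries, so these counts and the median are not independent of it. For this list and those that follow, 33.6% of all genes were called in this comparison, 20.9% higher and 12.7% lower, and the counts are a description. Gdf7 (logFC 3.33 ± 0.39, from a mean of 7.82 to 78.8 CPM, edgeR FDR 8.52e-06), Gdf10 (2.75 ± 0.34) and Gdf11 (2.17 ± 0.23, a relative of myostatin) rose most. Bmp5 (-1.31 ± 0.50, edgeR FDR 0.0415) and Bmp3 (-0.76 ± 0.29, edgeR FDR 0.0373), a BMP that does not activate Smad1, were lower.

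Of 15 receptors and co-receptors 13 were tested, with 3 higher and 2 lower, a share near the 33.6% of all genes. Bambi, a decoy receptor without a kinase domain (logFC 1.35), Eng, the endothelial co-receptor endoglin (1.17), and Tgfbr3, betaglycan (0.73), rose. Acvr1b, the activin type I receptor, fell from a mean of 218 to 68.6 CPM (logFC -1.67 ± 0.28, edgeR FDR 0.000182), and Bmpr1a, a BMP type I receptor, by 0.63 on the log2 scale (edgeR FDR 0.00632). The other 8 receptors were not called.

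Secreted antagonists other than Grem1 rose in 6 of 13 tested genes and fell in 1 (median logFC 0.73), beside 20.9% and 12.7% of all genes. Fst, follistatin, which binds activins, went from a mean of 3.51 to 50.1 CPM (logFC 3.81 ± 0.44, edgeR FDR 8.44e-06). Nog, noggin, which binds BMPs, rose from a mean of 0.860 CPM (logFC 3.49 ± 0.40, edgeR FDR 8.52e-06), and Bmper rose by 2.46 (edgeR FDR 0.00240). Nog and Bmper had at most 1.43 and 1.82 CPM in CONT and passed the filter on low counts only through mated libraries. Fst ranged from 1.48 to 5.50 CPM in CONT, so the CONT libraries alone would not have admitted it. The calls of these genes as higher are therefore not independent of that filter. Twsg1 was lower (-0.94, edgeR FDR 0.000181).

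Among 13 genes of latency and processing, all tested, 4 rose and 4 fell in INT against CONT. Pcsk5, a proprotein convertase, rose from a mean of 28.6 to 192 CPM (logFC 2.75), Thbs1, thrombospondin 1, which can release latent TGF-beta, by 1.23, and Ltbp3, which binds it in the matrix, by 1.17. Pcsk6 (-2.63, edgeR FDR 0.0263) and Furin (-1.17), further convertases of these ligands, fell, as did Itgb6 (-1.77), a subunit of an integrin that activates latent TGF-beta. Of the 12 Smads and their regulators 1 rose and 3 fell, again a share near the 33.6% of all genes: Smad9, which carries BMP signals, rose by 3.07 (a mean of 0.231 to 2.08 CPM), and the inhibitors Skil (-1.16), Smurf1 (-0.83) and Smad7 (-0.77) fell. Smad9 had at most 0.393 CPM in CONT and passed the filter on low counts only through mated libraries. Of 12 genes known as targets of these pathways 6 rose and 3 fell (median logFC 0.61). The largest rises among the targets were those of Ccn2 (2.61), Tgfbi (2.50) and Id3 (1.96). Id4, another target tested, had 1.64 to 3.39 CPM in CONT, and the CONT libraries alone would not have admitted it. The 3 targets that fell were Wnt4 (-1.38, edgeR FDR 0.0462), Skil and Smad7, the last 2 being among the Smad regulators as well. These directions belong to lists with genes of several functions and were not tested as sets.

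**Figure D4:**
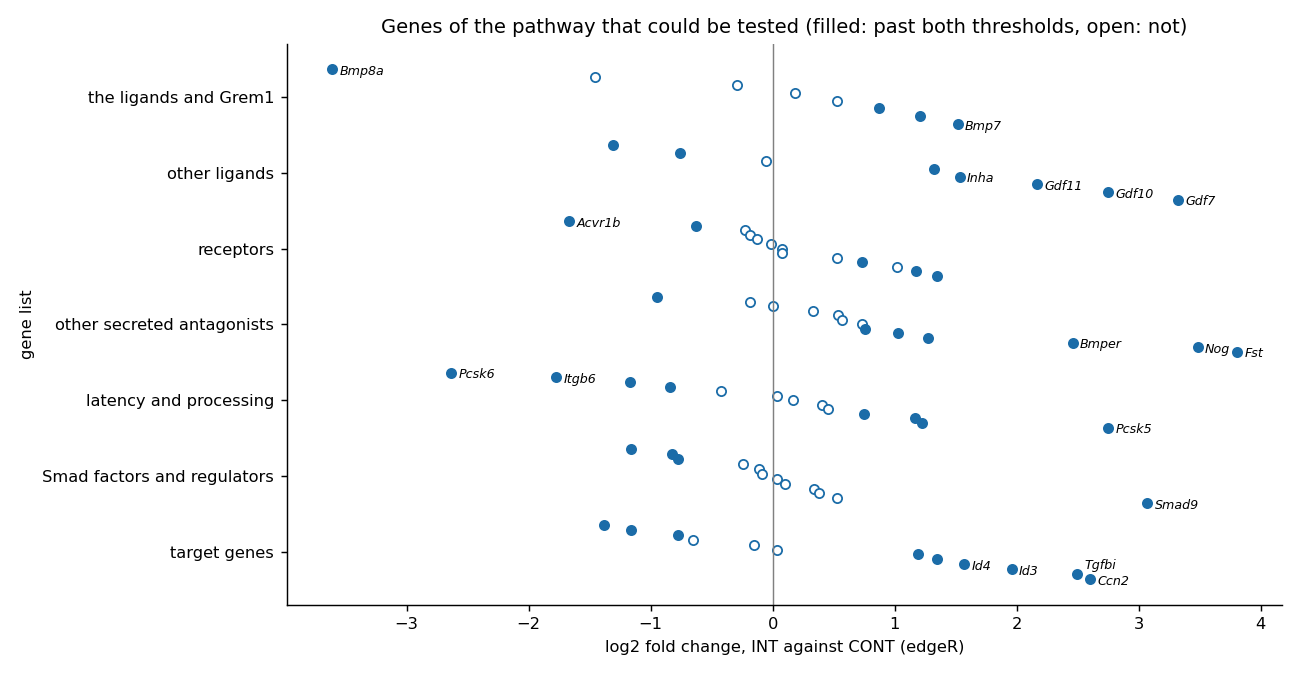
Log2 fold change, INT against CONT, of each gene tested in the lists of ligands, receptors, antagonists, processing factors, Smads and targets; filled points passed both limits, and genes past a size of 1.5 are named. Fst and Nog lie farthest to the right, and Bmp8a and Pcsk6 farthest to the left.

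The genes most alike across the 19 libraries were found among 13718 protein-coding genes by Pearson's r of log2 CPM, as a description, since all libraries share the contrast of estrus with day 3.5 pc. Bmp7 was most like Tbx3 (r = 0.98), Adgrl1 and Twist2, Bmp4 like Zfp174 (0.97), Zfp235 and Auh, and Bmp8a like Anxa3 (0.96), Ppfibp1 and Krt84. Inhbb was most like Trpv4 (0.97), Eef1akmt3 and Lemd1, Tgfb1 like Tril (0.97), Dzip1l and Gtpbp3, and Tgfb2 like Cadm3 (0.96), Rgl1 and Prf1. Tgfb3 was most like Gm29666 (0.89), Elp6 and Nemp2, and Bmp2 like Sac3d1 (0.75), Cpne7 and Ppp1r3c.

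The spread over the 16 mated libraries, as the standard deviation of log2 CPM, set the genes apart. After Inhbb (2.37) came Bmp8a (1.67), Inhba (0.70), Grem1 (0.67), Bmp2 (0.53) and Bmp4 (0.40). Bmp7 (0.29), Tgfb1 (0.24), Tgfb2 (0.20) and Tgfb3 (0.18) lay near or below the median of the genes tested (0.264). The last 4 genes ranged 1.49- to 1.87-fold from the lowest to the highest mated library. In the mated libraries the counts were 0 to 52 for Bmp8a, 9 to 69 for Inhba and 4 to 38 for Grem1, and at least 163 for each of the last 4. Low counts widen this spread, and their part in the order was not tested.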

How the data were processed

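RNA from pooled endometrium was sequenced in 19 libraries (3 CONT, 4 each of INT, SVX, SVX_VAS and VAS). Per the paper's methods and the submitters' processing notes, the authors prepared stranded total RNA libraries, trimmed adapters with AdapterRemoval, aligned reads with STAR to GRCm38/mm10 and counted them per gene with featureCounts; the annotation release and the strand setting are not given in the sources used here. The authors deposited these counts without normalization (49089 genes, none mitochondrial with a count). Symbols and positions came from GENCODE for GRCm38 and matched 48349 genes.

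The 17222 genes that reached 3 CPM (by total counts, before TMM scaling) in 3 or more of all 19 libraries entered 1 quasi-likelihood fit in edgeR 4.0.16 (R 4.3.3; TMM factors, a mean per group, no block), with an FDR of 0.05 or less and 1.5-fold as limits and 95% intervals. CPM in the text use the TMM factors, and log2 CPM a prior count of 2. Inhba and Grem1, below the filter, were compared by exact permutation over libraries (2-sided). Alternatives were looser filters, other size factors, DESeq2 1.42.0, limma-voom (limma 3.58.1), glmTreat, only the groups compared, a replicate block, no limit on the fold and leaving out libraries. The same fit was first tested on simulated data with known changes.

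The genes and the lists were chosen with earlier results of these data known. Named from each list, beside the 10 genes, were up to 3 largest rises and up to 3 largest falls. These were taken among genes past both limits in INT against CONT. The 3 protein-coding genes most alike to each gene by Pearson's r were also named. Bmp8b was named as the paralog of Bmp8a, and Lefty1, Inha and Id4 because of the filter on low counts. No group is named by a surgery, because the labels disagree. Promoters came from RefSeq tables. Reads and proteins were not analysed here.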

Additional observations from a re-analysis of the deposited data

Results flagged for a closer look

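Of 40 sets of 4 libraries searched for 1 library far from the others, 5 were found, where chance would give about 2 for normal, independent values. The levels of some genes are skewed and the genes share libraries, so this number is only a rough guide. Bmp2 in INT library 3 was at 12.2 CPM, and the next library of that group at 4.80 CPM. Bmp7 in SVX_VAS library 2 was at 36.0 CPM against 60.2 to 62.3 CPM in the other 3, and Grem1 in the same library at 0.275 CPM against 1.02 to 1.10 CPM. Bmp8a in SVX_VAS library 4 was at 3.36 CPM and the next at 0.240 CPM. Inhbb in SVX library 1 was at 57.3 CPM, with 3.12 to 6.05 CPM in the other SVX libraries. SVX_VAS library 2 also had the highest estrogen-response sum of the mated libraries (8665 CPM), SVX_VAS library 4 had 1044 CPM and SVX library 1 had 601 CPM; their part in these values was not tested.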

How the results depend on the processing

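Of 1201 values of single genes under alternative settings, 1160 kept their side of the limits, and 66 of these, none called, changed sign. Another 33 were no longer called, 8 became called and 0 called values changed sign. Inhba and Grem1 enter these numbers only through their log2 CPM differences. Against CONT their exact permutation test could not give p under 0.0571, so those values were bound to keep their side. Their edgeR calls under looser filters, given above, are not among the 8. The number of genes called in INT against CONT (4 of 8) was 2 with glmTreat, which tests against the fold itself (Bmp7 and Tgfb1), and 2 to 4 on leaving out each library in turn (2 without CONT library 1, INT library 3 or INT library 4). In SVX against CONT (5) it was 3 with glmTreat and 4 to 6 on leaving out a library. In SVX_VAS against CONT (5) it was 2 with glmTreat and 3 to 5 on leaving out a library (3 without CONT library 1, SVX_VAS library 1 or SVX_VAS library 2). In VAS against CONT (5) it was 3 with glmTreat, 3 without VAS libraries 2 and 3, and 4 to 5 on leaving out 1 library. The causes were not tested. Over all genes, glmTreat called 3332 in INT against CONT where the main test called 5780, 5054 of 7147 in SVX, 4214 of 6636 in SVX_VAS and 4318 of 6965 in VAS. Upper quartile scaling moved the median logFC of all genes to between 0.12 and 0.16 against CONT, and Tgfb2 in INT was then called (logFC 0.66). Filters that kept Inhba and Grem1 gave up to 5, 7, 7 and 6 genes called in INT, SVX, SVX_VAS and VAS.

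Libraries with the same replicate number did not deviate together throughout (15 of 36 pairs had a correlation of deviations over 0.1, range -0.69 to 0.58). Among CONT, INT, SVX and VAS the pairs ran from 0.13 to 0.33 for number 1 and from 0.07 to 0.34 for number 4. Pairs of these groups with SVX_VAS ran from -0.69 to -0.09 and from -0.44 to -0.17. The numbers thus do not pair the samples across all groups. With the replicate number as a block, the replicate block fit called 4, 5, 5 and 5 genes against CONT in INT, SVX, SVX_VAS and VAS and 0 against INT, as without it. Low counts of Bmp8a, Inhba and Grem1 limit the precision of their folds.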
